A study of Homo sapiens with 6 samples.

Results

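The regions described here lay between genes and held a peak of the corepressor TLE3 in each of 4 chromatin immunoprecipitation sequencing (ChIP-seq) libraries of MDA-MB-453 cells. Peaks that shared at least 1 bp were merged over the 4 lists on chromosomes 1 to 22 and X. A merged region was kept when each library had a peak in it, when it overlapped no span of a protein-coding gene, and when it lay 1 to 100 kb from the nearest end of such a gene. This left 827 of 72272 merged regions (1.14%), 31.8% of the 2602 regions found in all 4 libraries and 4.60% of the 17972 merged regions between genes. The regions were chosen by the called peaks of all 4 libraries and by position, so their presence after FOXA1 silencing is not a result.

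MDA-MB-453 is an established human breast cancer line, labelled as breast epithelial. All 4 libraries came from this line and were precipitated with a Proteintech antibody against TLE3. Both control libraries, siNS 1 and siNS 2, carried the labels' siNS name, and both silenced libraries, siFOXA1 1 and siFOXA1 2, came from cells treated against FOXA1. The labels name no other allele, agent or time, mark replicates as biological, and do not say whether they came from separate cultures, so p-values measure only the spread between these libraries. For siFOXA1 2 the replicate number follows the sample title, from which the name of its list differs. A pair of input libraries, labelled MDA-MB-454, was not analysed here. The lists hold positions and scores but no read counts, so depth is unknown, FOXA1 itself was not measured, and the cell identity could not be checked against expression.

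TLE3 is a Groucho-family corepressor without a DNA-binding domain of its own. Transcription factors such as FOXA1, TCF/LEF proteins, RUNX proteins and HES proteins recruit it, and it in turn brings histone deacetylases to chromatin. FOXA1 is a forkhead pioneer factor that opens chromatin at enhancers of luminal breast cells, where oestrogen, androgen and glucocorticoid receptors also bind. Enhancers commonly lie between genes, at a distance from the start sites they act on. The gene named beside a region below is the nearest one, which does not show that the region acts on it.

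Sequence could be read only where a region held the annotated start of a non-coding gene, because the reference used here gives 300 bases around gene starts and no genome. Of the 790 regions on chromosomes with such windows, 42 overlapped the window of a non-coding gene, from 250 bases before to 50 after its start (5.32%, exact 95% binomial interval 3.86 to 7.12%). These regions held 47 windows of 45 non-coding genes, and 39 windows lay wholly inside a region. The sequences below are RefSeq windows of GRCh38.p14, printed 5′ to 3′ on the strand of the non-coding gene, with matches on either strand to the forkhead motif in capitals. Of this motif, TGTTTAC was searched together with its variants in which the second letter is A, which is TATTTAC, or the sixth letter is G, which is TGTTTGC. The leading 3 are windows in regions with some of the highest mean score percentiles, among the highest-ranked regions that hold a whole start window. A window that ranks among them is not reported here. The printed windows are therefore no sample of how often the forkhead motif occurs. None of the 10 strongest regions described below holds one. The last 2 were chosen after their values were seen, LINC00887 for its gene space beside HES1 and LOC101926907 for its place near JUN, which encodes an AP-1 subunit.
TPRG1-AS1 at chr3:188947590-188947889, minus strand: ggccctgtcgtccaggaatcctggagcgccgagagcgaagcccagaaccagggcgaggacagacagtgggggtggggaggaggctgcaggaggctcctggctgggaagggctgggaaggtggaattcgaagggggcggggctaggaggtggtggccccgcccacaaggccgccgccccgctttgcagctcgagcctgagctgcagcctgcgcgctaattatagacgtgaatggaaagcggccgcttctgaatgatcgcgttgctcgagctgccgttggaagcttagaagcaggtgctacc
LOC124903930 at chr1:31769484-31769783, minus strand: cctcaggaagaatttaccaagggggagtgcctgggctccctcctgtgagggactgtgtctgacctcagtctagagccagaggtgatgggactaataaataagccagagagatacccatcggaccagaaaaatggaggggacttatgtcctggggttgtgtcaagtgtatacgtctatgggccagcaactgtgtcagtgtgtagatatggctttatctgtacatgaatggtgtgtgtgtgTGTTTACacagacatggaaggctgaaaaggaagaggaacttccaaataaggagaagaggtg
LINC02707 at chr11:34570645-34570944, plus strand: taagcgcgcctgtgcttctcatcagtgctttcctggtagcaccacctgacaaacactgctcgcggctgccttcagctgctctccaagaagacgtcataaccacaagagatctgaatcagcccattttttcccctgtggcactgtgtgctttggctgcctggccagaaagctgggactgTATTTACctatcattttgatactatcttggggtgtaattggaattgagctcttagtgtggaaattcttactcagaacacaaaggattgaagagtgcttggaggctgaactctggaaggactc
LINC00887 at chr3:194312755-194313054, minus strand: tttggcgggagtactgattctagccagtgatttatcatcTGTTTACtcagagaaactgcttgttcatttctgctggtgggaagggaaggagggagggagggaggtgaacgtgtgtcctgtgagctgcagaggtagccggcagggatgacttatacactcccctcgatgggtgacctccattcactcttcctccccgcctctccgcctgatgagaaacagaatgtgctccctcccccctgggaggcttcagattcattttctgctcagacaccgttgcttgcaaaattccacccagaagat
LOC101926907 at chr1:58814190-58814489, plus strand: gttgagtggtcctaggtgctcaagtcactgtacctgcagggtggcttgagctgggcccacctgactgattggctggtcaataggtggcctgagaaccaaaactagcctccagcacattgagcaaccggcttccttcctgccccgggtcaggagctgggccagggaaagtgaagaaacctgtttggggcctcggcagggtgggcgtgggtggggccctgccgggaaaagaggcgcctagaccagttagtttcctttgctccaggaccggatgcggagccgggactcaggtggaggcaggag

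The region over the TPRG1-AS1 window scored 437, 352, 31.2 and 42.1 in siNS 1, siNS 2, siFOXA1 1 and siFOXA1 2, and lay 48.5 kb from TPRG1. Its window was GC-rich at 65.0% and held GGGCGG, the core bound by SP and KLF factors, but none of the forkhead forms. The LOC124903930 region, 5.09 kb from ADGRB2, scored 144, 148, 40.0 and 36.4 and its window held TGTTTAC. The LINC02707 region lay 49.7 kb before the start of EHF, an epithelial ETS factor, and its window held TATTTAC. It scored 44.1 and 375 in the siNS libraries and 55.9 and 73.3 in the siFOXA1 libraries, so the siNS libraries stood far apart there. The LINC00887 region scored 47.1, 58.7, 14.7 and 12.5, and the LOC101926907 region, 29.7 kb from JUN, scored 323, 253, 25.3 and 33.6. A score can be read only against its own list.

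Each peak carries a score set by the authors, whose definition is not stated, so strength is given as a percentile within the peak's own list, with the best peak of a region taken for each library. The lists differ in length, with 45105 and 46586 peaks in siNS 1 and 2 and 12249 and 13754 in siFOXA1 1 and 2 on the chromosomes used. A percentile in a short list is not comparable with that in a long list, and none of the differences in percentile below shows a change in binding. The regions held 882, 852, 851 and 849 peaks, which were 1.96%, 1.83%, 6.95% and 6.17% of their lists. The rule asked for a peak in every list and the best peak was taken, so a high rank is not a result. The median percentile was 84.1 in siNS 1, 92.8 in siNS 2, 71.6 in siFOXA1 1 and 71.3 in siFOXA1 2. The lower and upper quartiles were 62.0 and 96.3, 82.7 and 97.5, 50.1 and 87.0, and 47.9 and 86.1. In siNS 2, 60.5% of the regions were at or above percentile 90 of the list and 4.35% under percentile 50, against 40.4% and 15.2% in siNS 1. For siFOXA1 1 and 2 the corresponding shares were 19.6% and 25%, and 18.6% and 27.4%. The siNS libraries thus differed from each other in how high these regions ranked, while the siFOXA1 libraries were close. Leaving out siNS 1 raised the number of regions to 1522.

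Against the other regions found in all 4 libraries, position between genes went with no difference in strength that held in every library. The 1193 regions inside genes had median percentiles of 85.3, 94.2, 69.9 and 70.5. The regions between genes were lower in the siNS lists, with differences of -1.21 and -1.39 points, and higher by 1.71 and 0.851 points in the siFOXA1 lists, and a two-sided exact sign-flip test over the 4 libraries gave p = 1 (adjusted p = 1 over 4 comparisons). Their median peak widths were 578, 791, 403 and 414 bp, against 618, 820, 409 and 419 bp inside genes, and so narrower in 4 of 4 libraries. That exact test gave p = 0.125, the smallest value 4 libraries allow, and an adjusted p of 0.5. The 315 regions at gene ends, less than 1 kb from an end on either side of it, differed in opposite directions between the groups. Their median percentiles were 97.4, 96.4, 67.6 and 64.6 and their median peak widths 1391, 1279, 379 and 398 bp, so gene-end peaks were the wider ones in siNS lists and slightly the narrower ones in siFOXA1 lists. Exact sign-flip tests of the difference from the between-gene regions gave p = 0.875 for the percentile and p = 0.5 for the width (both with an adjusted p of 1). The 267 regions over 100 kb from genes had median percentiles of 70.6, 92.7, 74.5 and 74.5.

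**Figure D1:**
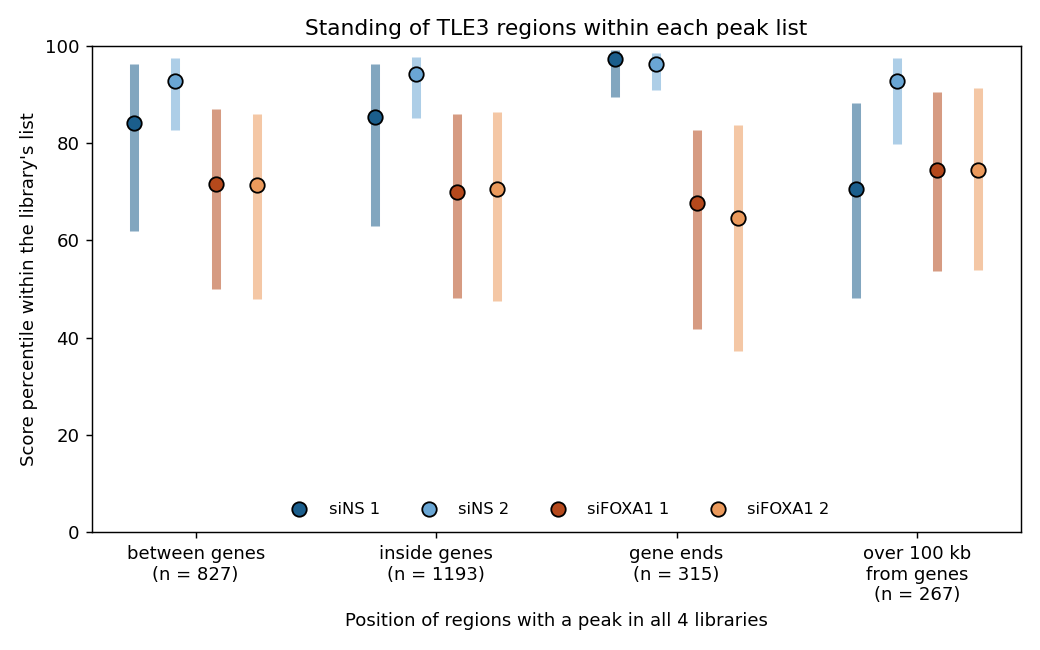
Score percentile within each library's own list (vertical axis) for regions with a peak in all 4 libraries, by position (horizontal axis); points are medians over regions and bars run from the lower to the upper quartile. Between genes the medians are 84.1 and 92.8 in the siNS lists and 71.6 and 71.3 in the siFOXA1 lists; the lists differ in length, so the groups are not on a common scale.

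Most between-gene regions held a single peak in every library. Overlapping peaks of all 4 lists were required by the rule, so that these peaks lie close together is largely fixed by it and is not a result. In 729 of 827 (88.1%) each library had exactly 1 peak, and in 786 (95%) at least 1 base was shared by peaks of all 4 libraries. The shared core had a median of 296 bases (quartiles 235 and 393) and reached 1354. The merged region was 923 bp wide in the median (quartiles 709 and 1175, range 331 to 3880), against 643 bp for the 3810 between-gene regions with a peak in both siNS and in neither siFOXA1 library, called siNS-only below. The 790 between-gene regions with the reverse pattern, called siFOXA1-only, had a median width of 466.5 bp. Shared regions join peaks of 4 lists and the other classes peaks of 2, so these merged widths are not like for like. Within single lists the median peak was 578 and 791 bp in siNS 1 and 2, against 503.5 and 499.5 bp for siNS-only regions. In siFOXA1 1 and 2 it was 403 and 414 bp, against 366 and 398 bp for siFOXA1-only regions. In 576 regions (69.6%) every siFOXA1 peak lay inside a siNS peak, and in 295 (35.7%) inside a peak of each siNS library. The siFOXA1 peak was narrower than the siNS peak in all 4 library pairs in 543 regions (65.7%) and wider in 42. Other shared regions were not counted this way. Inside genes their median peaks were 618 and 820 bp in siNS and 409 and 419 bp in siFOXA1. At gene ends they were 1391 and 1279 bp against 379 and 398 bp, and over 100 kb from genes 436 and 711 bp against 433 and 470 bp. Narrower siFOXA1 peaks were thus not particular to the space between genes. In the 729 regions with 1 peak in each library, the mean peak centres of the groups were 77.25 bp apart in the median. Single centres were 69.5 bp apart between both siNS libraries and 40.0 bp apart between both siFOXA1 libraries. The first offset is between group means and the others between single centres, so they are not like for like. Peak width can depend on depth, which is unknown here, and its part in the width difference was not tested.

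The strongest between-gene regions lay beside genes of varied function. In 9 of the 10 strongest both siFOXA1 peaks were narrower than both siNS peaks, against 65.7% of all 827, the exception being MYC. The region with the highest mean percentile lay 26.3 kb before the start of SPOCD1 (chr1:31842308-31843750). It scored 265 and 347 in siNS 1 and 2 and 90.3 and 86.8 in siFOXA1 1 and 2, with peaks of 1111, 1244, 561 and 458 bp. The next lay 6.99 kb from SP6, an SP/KLF-family factor (chr17:47883304-47885789), and scored 258, 227, 77.1 and 120. Its siNS peaks of 2486 and 2273 bp were the widest of the 10, and its siFOXA1 peaks measured 1123 and 1156 bp. Beside ELF3, an epithelial ETS factor, the region at chr1:202045849-202047726 lay 28.7 kb past the far end of the gene and scored 426, 337, 67.5 and 79.4. Its siNS peaks spanned 1846 and 1876 bp and its siFOXA1 peaks 594 and 572 bp. A further region of the 10 lay on the other side of ELF3, in the 4.44 kb between RNPEP and ELF3 (chr1:202007795-202008744). It overlapped the non-coding ELF3-AS1 and scored 444, 315, 72.4 and 59.5. The others lay near BHLHE40, a helix-loop-helix repressor, near BCAN, near CD36, a fatty acid receptor, near BAHCC1, near MYC, and near BMF, a pro-apoptotic BH3-only gene. The MYC region (chr8:127668417-127669626), 65.8 kb from the gene, overlapped LOC105375754 and scored 333, 274, 68.0 and 62.1. It had peaks of 871, 1200, 840 and 883 bp, so its siFOXA1 2 peak was wider than its siNS 1 peak. The lowest percentile of the 10 in any library was 96.3, for the RNPEP region in siFOXA1 2.

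**Figure D2:**
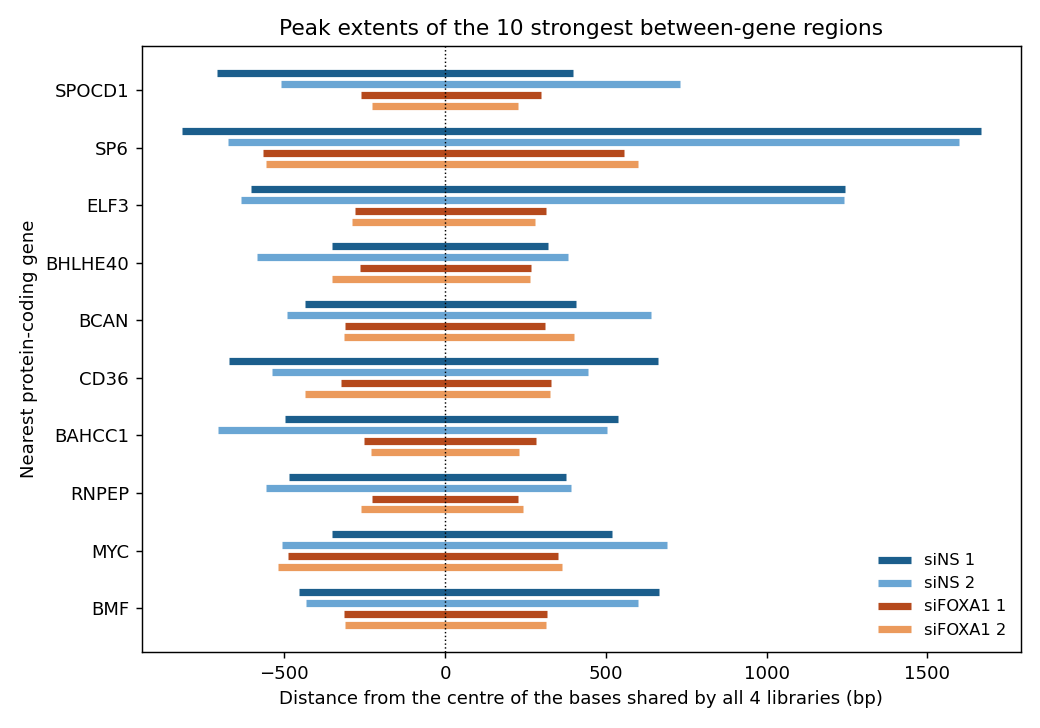
Extent of the peak of each library (bars, coloured by library) around the centre of the bases shared by all 4 libraries (horizontal axis, bp) for the 10 regions with the highest mean score percentile, named by nearest gene. The ELF3 region spans 1846 and 1876 bp in the siNS lists and 594 and 572 bp in the siFOXA1 lists.

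The rank of a region was alike within a group and unlike between groups. Both siFOXA1 percentiles lay below both siNS percentiles in 489 of 827 regions (59.1%, exact 95% interval 55.7 to 62.5%), against 61% of all 2602 regions found in the 4 libraries. Both lay above in 73 (8.83%), against 8.69% of all, and in 265 the groups overlapped. These shares were near those of all regions, which include the 827, and say nothing particular to the space between genes. The pooled share hides a difference by position. Both siFOXA1 percentiles were below in 84.1% of regions at gene ends, 61.6% inside genes and 36.7% over 100 kb from genes. Both were above in 5.08%, 7.80% and 16.5%. With the same number of peaks taken from each list, the 12249 with the highest scores, 496 regions remained in all 4 lists, of which 222 were below (44.8%) against 49.9% of all, and 81 above (16.3%) against 14.8%. Across the 827 regions the Spearman correlation of percentiles was 0.63 between siNS 1 and 2 and 0.72 between siFOXA1 1 and 2. It was 0.11 and 0.05 between siNS 1 and the siFOXA1 libraries and 0.38 and 0.34 between siNS 2 and the same libraries. These are descriptions over regions, which share their libraries and are not replicates. The median absolute difference was 7.23 points within siNS, 10.9 within siFOXA1 and 19.3 to 23.3 points across the groups.

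Beyond the overlap, single regions reached opposite ends of the lists. The region with the largest difference of mean percentile, siFOXA1 below siNS, lay 68.4 kb past B3GNT2, a glycosyltransferase gene (chr2:62293176-62294630), at the 97.3 and 95.4 percentiles in siNS and the 7.63 and 14.3 percentiles in siFOXA1. A region 80.0 kb past SKOR1, a corepressor of the SKI family, stood at 99.1, 99.4, 21.4 and 7.10, and that 32.0 kb before REG3G, an antimicrobial lectin gene, at 99.4, 98.0, 6.71 and 23.8. The region 34.0 kb before ID3, an inhibitor of helix-loop-helix factors, stood at 90.4 and 76.4 in siNS and at 1.01 and 0.0618 in siFOXA1, so it was among the weakest peaks of both siFOXA1 lists. The fifth, 20.4 kb before KIAA0232, stood at 92.2, 83.2, 4.11 and 6.51. In the other direction, the region 7.39 kb before TIPRL (chr1:168171094-168171573) stood at 12.2 and 8.88 in siNS and at 78.2 and 79.9 in siFOXA1. The AOAH region (chr7:36507704-36508501), 4.44 kb past a gene that degrades bacterial lipid, stood at 2.69 and 69.0 in siNS and at 99.3 and 99.2 in siFOXA1, so the siNS libraries differed by more than the nearer of them did from siFOXA1. The PIK3C2A region stood at 2.69, 25.9, 68.1 and 69.4, the ZCCHC3 region at 53.2, 38.4, 99.3 and 99.7, and the region near TAT, the liver tyrosine aminotransferase, at 18.7, 69.5, 95 and 97.5. At PIK3C2A and TAT no base was shared by all 4 libraries, nor was one at KIAA0232.

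**Figure D3:**
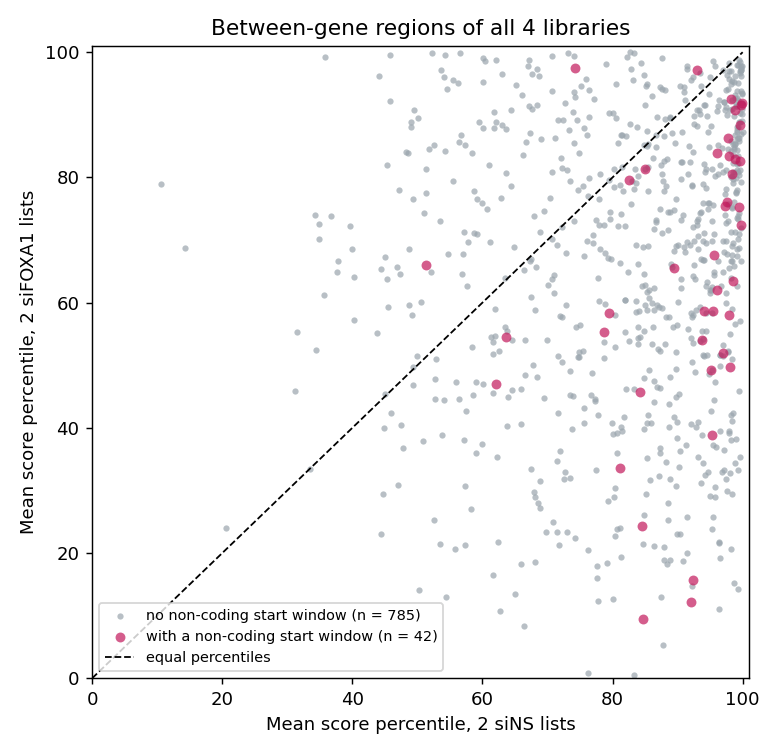
Mean score percentile of each of the 827 regions in the 2 siNS lists (horizontal axis) and in the 2 siFOXA1 lists (vertical axis); pink points are the 42 regions with the start window of a non-coding gene and the dashed line marks equal percentiles. Of the 42, 34 have both siFOXA1 percentiles below both siNS percentiles and 0 have both above, against 59.1% and 8.83% of all 827.

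Regions with a non-coding start stood higher in the siNS lists than those without, a split made after the data were seen and not tested. The 42 had median percentiles of 96.5 and 96.2 in siNS and 68.3 and 76.3 in siFOXA1, against 83.3, 92.5, 71.6 and 71.3 for the others. Among them 34 (81.0%) had both siFOXA1 percentiles below both siNS percentiles and 0 had both above, against 429 below (57.4%) of those without a window. The share below was 61.0% of all regions found in the 4 libraries and 84.1% of those at protein-coding gene ends, so it was not particular to non-coding starts. The region over SNHG5, a small nucleolar RNA host gene, stood at 93.4, 90.6, 1.98 and 22.4. By contrast the LINC02707 region by EHF stood at 86.2, 99.8, 96.7 and 97.5, with the groups overlapping. Start windows were touched by 8.30% of siNS-only and 0.683% of siFOXA1-only between-gene regions and by 3.35% of all merged between-gene regions. Wider regions meet more windows by their extent. Per covered Mb there were 52.6 such regions here, 112 among siNS-only, 13.8 among siFOXA1-only and 68.0 among all merged between-gene regions. By this measure the regions here stood below all merged between-gene regions. Over all between-gene peaks, whether or not shared, the share that touched a non-coding start was 4.88% and 4.05% in siNS and 1.77% and 1.75% in siFOXA1. The means were 4.46% ± 0.587 and 1.76% ± 0.0117 (SD, n = 2 each), and a two-sided exact permutation test over 6 relabelings gave p = 0.333, the smallest value for 2 against 2 libraries. This comparison was added after the data were seen. Apart from starts, 245 regions (29.6%) overlapped a long non-coding RNA gene, against 28.0% of siNS-only, 24.1% of siFOXA1-only and 9.05% of the shared regions inside protein-coding genes. The share was 32.2% for shared regions over 100 kb from genes. It was 24.0% for all merged between-gene regions, which were narrower, with a median of 375 bp.

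Motif letters in the 39 whole windows were counted on both strands, as a description. The set is small, and some windows overlap, such as those of LINC01315 and LOC124905126. At least 1 of the forkhead forms occurred in 9 windows (23.1%), against 9.57% of all 34789 start windows and 12.3% of the 12797 windows of long non-coding RNA genes. TGTTTAC alone was in 4 windows (10.3%, against 3.42% of all and 4.40% of long non-coding windows). The AP-1 motif TGANTCA was in 7 (17.9%, against 7.69% and 10.3%) and the nuclear receptor motif AGGTCA in 11 (28.2%, against 13.8% and 17.1%). GGAATG, the TEAD motif, was in 10 (25.6%, against 14.1% and 17.2%), and AACCNGTT, the grainyhead motif, in 3 (7.69%, against 1.73% and 1.85%). For GGGCGG the count was 16 (41.0%, against 44.9% and 25.5%). Of the other motifs among the 20 searched, some stood close to these shares or under them. The ETS motif GGAAGT was in 9 windows (23.1%, against 22.8% and 20.9%), the AP-2 motif GCCNNNGGC in 6 (15.4%, against 23.2% and 16.1%) and the GATA motif AGATAA in 5 (12.8%, against 10.4% and 14.6%). The E-box CACGTG and the XBP1 core GACGTG were in 2 each (5.13%, against 7.24% and 5.40% for the E-box and 7.80% and 6.22% for XBP1). The CTCF core CCACNAGG and the SOX motif ACAATGG were in 1 each (2.56%, against 4.94% and 4.74% for CTCF and 3.16% and 4.33% for SOX). The nuclear factor I motif TTGGCA was in 6 (15.4%, against 12.6% and 15.1%) and the steroid receptor motif AGAACA in 9 (23.1%, against 14.8% and 20%). TTGCNNAA, of C/EBP factors, was in 8 (20.5%, against 10.5% and 13.5%), TGTGGTT, of RUNX factors, in 3 (7.69%, against 4.28% and 5.27%), and CTTTGAT, of TCF/LEF factors, in 2 (5.13%, against 2.64% and 3.74%). The median GC content was 58.3%, against 58.7% of all windows and 50% of long non-coding windows. A match of letters is not a bound site, and the windows cover only the regions that hold a non-coding start.

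In their distance from genes the shared regions stood between those of a single group. The 827 regions lay 21.0 kb from a protein-coding gene in the median (quartiles 8.66 and 39.7 kb), between siNS-only regions at 14.9 kb and siFOXA1-only regions at 32.0 kb. From 1 to 5 kb lay 14.6% of them, against 22.8% of siNS-only and 8.61% of siFOXA1-only regions. From 50 to 100 kb lay 18.5%, against 14.6% and 32.0%. Seen from the siNS lists, 11.2% of the regions called in both were also in both siFOXA1 lists at 1 to 5 kb, 14.4% at 5 to 10 kb, 16.3% at 10 to 20 kb, and 19.4% both at 20 to 50 kb and at 50 to 100 kb. From the siFOXA1 lists the order was the opposite, with 46.7%, 41.5%, 37.6%, 37.2% and 24.4%. These shares rest on the same values that chose the regions and were not tested. The median percentiles were 89.7, 94.0, 74.2 and 68.4 at 1 to 5 kb and 79.8, 91.7, 71.6 and 71.9 at 50 to 100 kb, with the widest gap in siNS 1. For the 639 regions whose nearest gene had a start in the reference, 352 (55.1%) lay before the start and 287 past the far end. The share before the start was 50.8% for siNS-only, 60.2% for siFOXA1-only and 52.6% for all merged between-gene regions.

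**Figure D4:**
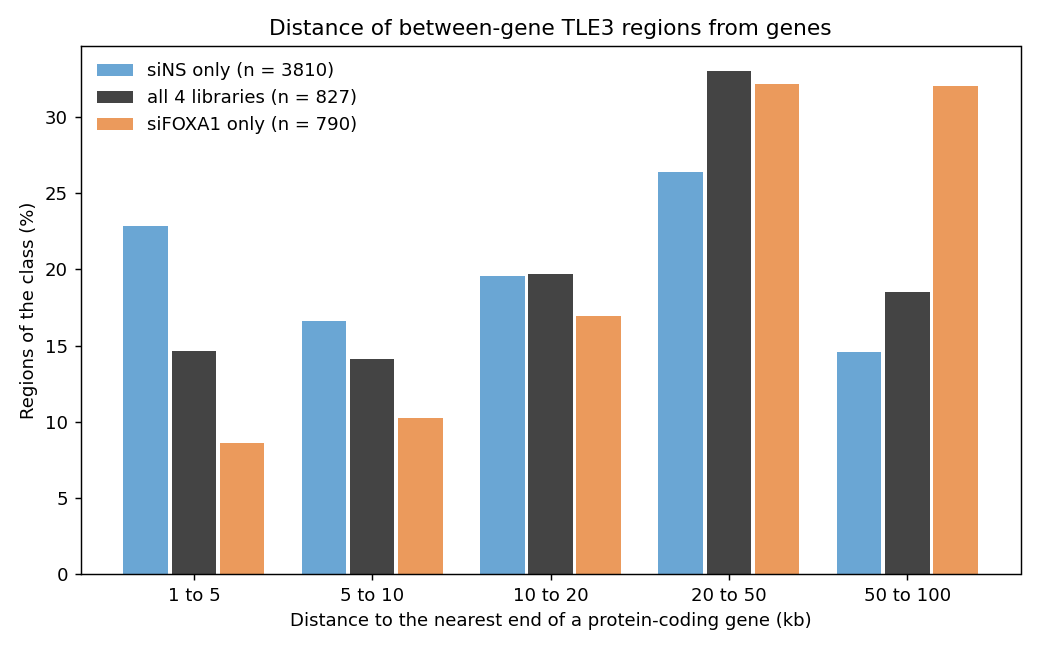
Share of regions (vertical axis, percent of the class) by distance to the nearest end of a protein-coding gene (horizontal axis, kb) for the 827 shared, the 3810 siNS-only and the 790 siFOXA1-only regions between genes. Shared regions lie between both other classes at 1 to 5 kb (14.6%, against 22.8% and 8.61%) and at 50 to 100 kb (18.5%, against 14.6% and 32.0%).

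At the near limit of the distance window, the regions just inside lay 1003 bp from SLC25A10, at the percentiles 97.9, 93.7, 10.8 and 50.4, and 1056 bp from KRT8, a luminal keratin gene, at 99.2, 99.6, 77.9 and 59.5. Just outside were regions 953 bp from CCN5, at 86.4, 67.3, 59.8 and 58.9, and 905 bp from SLC22A6, at 89.7, 63.0, 48.7 and 43.8. At the far limit the regions just inside lay 99276 bp from DDX1, at 98.8, 97.6, 97.1 and 92.7, and 99039 bp from PGRMC2, at 59.0, 64.7, 50.3 and 58.9. Those just outside lay 100267 bp from FUT8, at 80.6, 89.6, 30.7 and 21.3, and 100674 bp from ZNF703, at 32.2, 20.9, 86.0 and 91.4. The siFOXA1 percentiles of the ZNF703 region stood above both siNS values, unlike those of the other 7.

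Peaks between genes in this distance range, shared or not, made up 22.8% and 23.8% of the siNS lists and 27.9% and 26.9% of the siFOXA1 lists. The means were 23.3% ± 0.718 and 27.4% ± 0.705 (SD, n = 2 each), a difference of 4.09 points that was above the spread between replicates, since each siFOXA1 library exceeded each siNS library. The two-sided exact permutation test over 6 relabelings gave p = 0.333, the smallest value possible. In number, the peaks of this range were 10293 and 11104 in siNS and 3420 and 3703 in siFOXA1, so the higher share went with fewer peaks. The size of the difference depended on the settings. It was 1.38 points at 2 to 50 kb, 5.70 at 5 to 100 kb and 12.8 with all genes as bounds. With lists of equal length it was 7.48 points, and 7.75 without peaks under each list's median score.

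The regions were scattered, with a few gene spaces that held several. They lay in 689 spaces between neighbouring protein-coding genes, of which 583 held 1 region, 86 held 2, 12 held 3 and 8 held 4 or 5. The median distance to the next region was 392 kb, and 95 regions (11.5%) had another within 10 kb. Per 10 Mb of such space there were 10.6 regions, from 3.59 on chromosome X and 3.70 on chromosome 18 to 18.6 on chromosome 22 and 19.2 on chromosome 17. Chromosome 1 held the most in number, 116.

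Between HES1, a Notch-induced repressor that binds Groucho proteins, and CPN2 lay 5 regions that span 173 kb. In 3 of them both siFOXA1 percentiles were below both siNS percentiles, against 59.1% of all 827. The region 1.95 kb past HES1 (chr3:194140680-194142902) stood at 99.8, 99.2, 94.4 and 83.2. At 20.1 kb past the gene the region stood at 60.8, 44.7, 68.5 and 26.9, and at 73.9 kb at 92.3, 96.2, 93.8 and 89.4, with the groups overlapping in both. The LINC00887 region closed the row at 87.4, 91.3, 71.1 and 60.0.

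Between LRRC74A and IRF2BPL, over a span of 104 kb, all 5 regions were below, against 59.1% of all 827. On the other side of IRF2BPL lay 2 more. With 5 regions nearest to it, IRF2BPL had the most of any gene, at 3.84 to 70.4 kb. Its strongest, 16.0 kb past the far end (chr14:77007498-77008520), stood at 99.6, 99.3, 93.8 and 78.8, and its weakest in siFOXA1 1 at 77.8, 84.4, 7.41 and 59.7.

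A further space with 5 regions lay between FOXO6, a forkhead factor gene, and EDN2, an endothelin gene. There 4 of 5 regions were below, against 59.1% of all 827.

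Other genes with several regions were POLG, the mitochondrial DNA polymerase, and SCARB1, the HDL receptor, with 4 each, and SLC26A9, ELF3, ODC1, FOXO6, HES1, TOMM20 and KATNAL1 with 3 each. The SLC26A9 region at chr1:205954631-205955749, which overlapped the antisense gene SLC26A9-AS1, had the highest score of any region in siNS 2, at 696. It scored 408 in siNS 1, 27.6 in siFOXA1 1 and 43.4 in siFOXA1 2. Beside ODC1, which makes the first enzyme of polyamine synthesis, the region 38.4 kb before the start scored 115 and 439 in siNS and 14.3 and 15.5 in siFOXA1. The region beside POLG over the start of the microRNA host gene MIR9-3HG scored 102, 93.4, 18.8 and 30.1. All 3 regions beside TOMM20, a mitochondrial import receptor, were below, against 59.1% of all 827. Their medians were 98.5, 98.5, 75.3 and 79.1. Those beside KATNAL1 had medians of 62.5, 83.2, 71.4 and 50.5, and 1 of the 3 was below.

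In all, 710 of 19974 protein-coding genes (3.55%) were the nearest gene of a region, 613 of them of 1 region, 81 of 2 and 16 of 3 or more. Of 409 genes on 14 lists for this cell type and treatment, 46 had a region (11.2%). A gene flanked by long gene-free space has more room for a region, which the shares below do not take into account, and no list was tested. The lists were drawn up with earlier results of these data known.

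Genes of the luminal epithelium, the lineage of the milk duct lining, had a region in 9 of 40 (22.5%, against 3.55% of all genes), with 14 regions in all. Both siFOXA1 percentiles were below both siNS percentiles in 11 of the 14 and above in 0, against 59.1% and 8.83% of all 827. Besides ELF3 with 3, these were CLDN4, GRHL2 and KRT7 with 2 each and EHF, KRT8, KRT18, KRT19 and EPCAM with 1 each. Next to CLDN4, a tight junction claudin, the nearer region stood at 98.9, 98.1, 96.5 and 74.3 and the farther at 95.9, 91.9, 53.2 and 50.2. The stronger KRT7 region (chr12:52216829-52217722) overlapped the non-coding gene LINC00592 and stood at 99.0, 98.8, 63.3 and 91.7. There siFOXA1 2 was far closer to the siNS libraries than siFOXA1 1 was. Of the GRHL2 regions, beside a grainyhead factor gene, the farther stood at 95.7, 99.2, 79.9 and 59.7 and the nearer at 82.9, 77.4, 78.6 and 84.0, the latter with overlapping groups. Without siNS 1, 15 of 40 luminal genes had a region.

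Hormone receptor programmes were covered by 3 lists. Of oestrogen response genes 7 of 25 had a region (28.0%), 5 of the 7 regions below and 0 above, against 59.1% and 8.83% of all 827. The number of these genes was 3 with peaks under each list's median score left out and 4 with non-coding genes as further bounds. The KCTD6 region stood at 48.5, 99.8, 97.0 and 98.0, so siNS 1 alone was low. For CISH, a STAT-induced inhibitor of cytokine signalling, the region stood at 96.2, 91.5, 75.8 and 63.9, and for ADCY9, an adenylyl cyclase, at 95.4, 89.8, 59.3 and 80.4. Glucocorticoid response genes had a region in 4 of 24 (16.7%), at PER1, BCL6, TAT and KLF9. Of these 4 regions 2 were below and 1 above, against 59.1% and 8.83% of all 827. The regions of PER1, a clock gene, and KLF9 were below, at 94.6, 93.3, 82.8 and 75.2 and at 98.0, 95.7, 48.7 and 17.2, while that of TAT was above. Of androgen response and apocrine genes 4 of 35 (11.4%) had a region. Of their 5 regions 3 were below and 1 above, against 59.1% and 8.83% of all 827. Those of NDRG1, AZGP1 and ALOX15B were below, the last at 97.0, 99.5, 3.25 and 37.9. Of the 2 SLC45A3 regions, the farther stood at 21.5, 75.7, 77.2 and 90.7, above both siNS values, although siFOXA1 1 and siNS 2 were close. Without siNS 1, 9 androgen response genes had a region.

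Forkhead and pioneer factor genes had a region in 4 of 22 (18.2%), with 6 regions of which 5 were below, against 59.1% of all 827. The FOXN3 region before the start of that forkhead repressor stood at 76.5, 98.2, 65.6 and 6.33, and the FOXL1 region at 79.4, 76.0, 0.233 and 24.6. Beside FOXO3, which acts downstream of PI3K and AKT, the region stood at 77.0, 98.3, 76.4 and 84.9, with overlapping groups. On the list of Groucho/TLE and corepressor genes, 3 of 27 had a region (11.1%), and without siNS 1, 5 had one. These included ID3 and ID4, genes of helix-loop-helix inhibitors rather than of corepressors. The ID4 region stood at 92.1, 96.0, 81.6 and 82.5, below like that of ID3 and like 59.1% of all 827. Genes of HER2, PI3K and receptor tyrosine kinase signalling had a region in 4 of 32 (12.5%). Of their 6 regions 5 were below, against 59.1% of all 827. At SPRY1 the groups overlapped, with percentiles of 51.7, 96.3, 61.0 and 85.0. All 3 regions of DUSP5, an ERK phosphatase, were below, as were those of the HER2 adaptor GRB7, at 76.3, 94.9, 68.6 and 55.5, and of SPRED2, an ERK pathway inhibitor, at 98.8, 96.5, 49.2 and 10.4.

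Mesenchymal genes had a region in 4 of 34 (11.8%), all 5 regions below, against 59.1% of all 827: 2 beside SNAI1, a repressor of epithelial genes, and 1 each beside MMP9, TGFB1 and SMAD3. The MMP9 region stood at 99.0, 98.8, 92.4 and 91.1. Basal and myoepithelial genes had a region in 3 of 33 (9.09%), at ID4, OXTR and EN1. Of these, 2 of 3 were below, against 59.1% of all 827. In the Wnt pathway, 2 of 33 genes had a region (6.06%). Neither region was below, against 59.1% of all 827. That of TCF7L1, a TCF/LEF-family partner of Groucho proteins, was above, at 35.7, 73.4, 95.3 and 93.0. Without siNS 1, 4 Wnt genes had a region. For the remaining lists the shares were near the background or under it, with 1 of 27 Notch genes (3.70%, HES1 with 3 regions), 1 of 26 neuronal genes (3.85%, TH), 1 of 34 ribosomal protein genes (2.94%, RPLP1) and 0 of 32 cell cycle genes. Of the latter, 2 had a region without siFOXA1 1 and 1 without siFOXA1 2, and of the Notch genes 2 had one without siFOXA1 1. With every gene within 100 kb of a region counted, ribosomal protein genes numbered 6 and cell cycle genes 3.

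**Figure D5:**
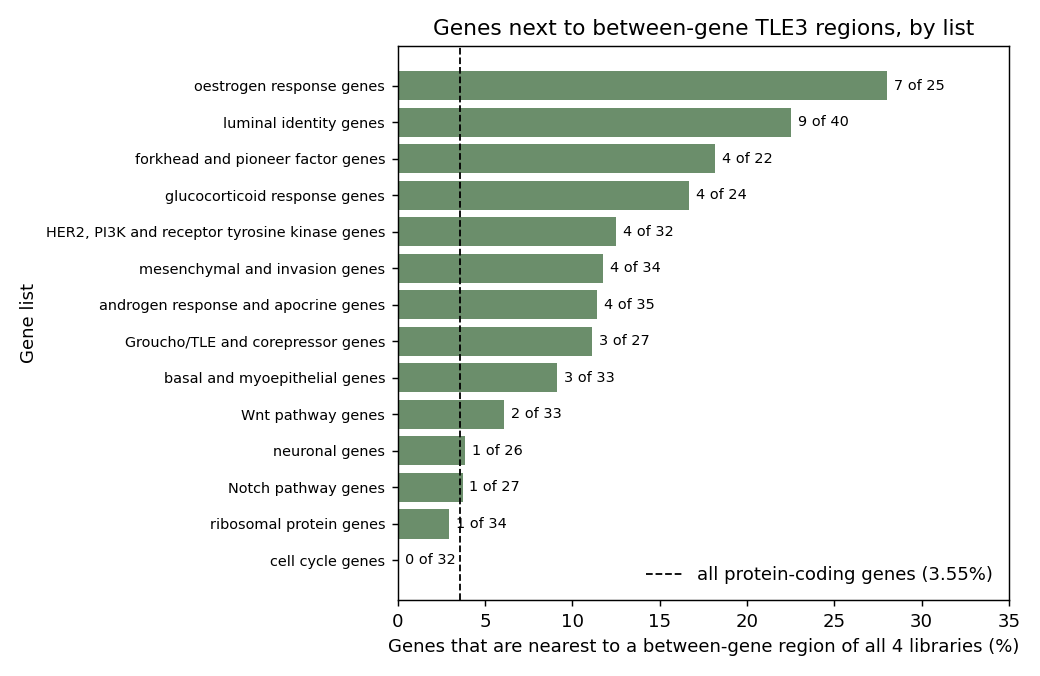
Share of the genes of each list that were nearest to a shared between-gene region (horizontal axis, percent), with the count beside each bar; the dashed line marks the 3.55% of all protein-coding genes. Oestrogen response genes reach 28.0% and luminal genes 22.5%, while ribosomal protein genes are at 2.94% and cell cycle genes at 0; under other settings the number of oestrogen response genes fell to as few as 3 of 25.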

How the data were processed

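For each ChIP library the authors deposited a list of peak positions, each with a score whose definition is not stated. Per the submitters' processing notes, Trim Galore, BWA 0.7.5a, SAMtools and MACS2 were used with build hg38. Their settings, and how inputs were used, were not given in the sources used here. Mitochondrial peaks (4, 3, 4 and 9 in siNS 1, siNS 2, siFOXA1 1 and siFOXA1 2) were left out. Positions are 1-based. Scores were turned into percentiles within each list, with ties averaged. Genes and 300-base start windows came from RefSeq tables on GRCh38.p14. These have no genome sequence, so motifs on region centres were not searched, and chromosome 8 windows were not used here. Per-library values were compared by exact permutation or sign-flip tests, two-sided, with Benjamini-Hochberg adjustment over 4 comparisons.

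The members, the 14 gene lists and the tests were chosen with earlier results of these data known. Named regions are the 10 with the highest mean percentile, the 5 largest moves in each direction without group overlap and the 2 on each side of each distance limit. Named genes are the 10 with the most regions and up to 4 per list; an item that this rule selects is not reported here. Alternatives changed the score threshold, list length, overlap, distance window, bounding genes, ranking, gene assignment and libraries. On lists with planted regions, all 857 were found, and merging equalled bedtools 2.31.1 for 72272 regions. Python 3.11.15, numpy 2.4.6, scipy 1.17.1 and matplotlib 3.10.9 were used.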

Additional observations from a re-analysis of the deposited data

How the results depend on the processing

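The number of regions was 827 as reported, 419 without peaks under each list's median score, 496 with lists of equal length, and 840 to 1522 with 1 library left out (1522 without siNS 1). The share with both siFOXA1 percentiles below both siNS percentiles (59.1%) was 44.8% with lists of equal length, 54.7% with all genes as bounds, 34.1% when ranked by peak width, and 61.2% to 69.8% with 1 library left out. The mean of the median percentiles over libraries (80.0) became 88.0 with the median score threshold, 69.3 by peak width, and 74.5 to 79.8 with 1 library left out. List genes with a region (46) numbered 30 with the threshold, 88 with every gene within 100 kb of a region, and 46 to 69 with 1 library left out. Over 12 alternatives they numbered 6 to 15 for the luminal, 3 to 10 for the oestrogen, 2 to 7 for the glucocorticoid, 1 to 9 for the androgen, 2 to 6 for the forkhead, the corepressor and the HER2 list, 3 to 8 for the mesenchymal, 2 to 10 for the basal, 1 to 7 for the Wnt, 1 to 5 for the Notch, 1 to 2 for the neuronal, 0 to 6 for the ribosomal and 0 to 3 for the cell cycle list. The mean difference in percentile from regions inside genes (-0.00719 points) reversed to 0.418 with lists of equal length, 0.122 with peaks widened by 250 bp, 0.0633 at 2 to 50 kb and 0.371 with all genes as bounds, and spanned -0.775 to 0.392 with 1 library left out. From gene ends it spanned -1.36 to 0.0672, reversed without siFOXA1 1. The cause of these moves was not tested, except that fewer libraries or peaks have to share a region. Of 103 values for the main results under the alternatives, 82 were counted as keeping their side or size. For tested differences this asked only for an unchanged sign, whatever the size, since no p-value here could pass 0.05. The count is therefore no measure of how stable their sizes were.

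The replicate numbers are shared by siNS and siFOXA1, but nothing says that they mark a common batch, and 2 pairs are too few to check it. With the replicate block, the difference in the share of peaks between genes was 4.09 points with an exact p = 0.5, the smallest 2 pairs allow. The planned motif search in windows of 100, 200 or 300 bp on the region centres was not run. Depth is unknown, and scores rank only within a list.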
